A study of Mus musculus with 12 samples.

Results

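The erythroid membrane and regulator genes are 8 genes that red cell precursors use to build and run the red cell: Klf1 and Hemgn among the regulators, Slc4a1, Epb42, Ank1 and Rhag of the membrane, Tfrc for iron uptake and Pklr for glycolysis. Their accessible regions were taken from the master peak-list of an ATAC-seq study, as every peak whose gene name in the HOMER annotation was one of the 8. This gave 36 of 84243 peaks, and all 8 genes were among the 19040 genes named in the list. ATAC-seq marks open chromatin by the insertion of a transposase. The study profiled 12 samples, with 2 replicates of each of 6 cell types sorted from untreated wild-type C57BL/6 mice aged 8 to 12 weeks. Hematopoietic stem cells (HSCs), megakaryocyte progenitors (MkPs), erythroid progenitors (EPs), granulocyte/macrophages (GMs) and B cells came from bone marrow, and T cells from thymus. It asked how far regulatory elements of the blood lineages are already open in HSCs. EPs were gated as lineage-negative, CD71+ and Ter119 positive or negative cells. CD71 is the transferrin receptor, the product of Tfrc, so Tfrc protein was part of how these cells were chosen.

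The list holds 1 set of regions for all cell types together. Neither the cell type nor the strength of a peak is recorded, the deposited score was 0 in each of the 84243 peaks, and the depth of each sample is unknown. The values below are therefore positions, counts and sequence features, with no error between replicates and no test between cell types. By the list alone, a peak named for an erythroid gene may have been open in any of the 6 cell types. From their signal tracks the authors show Klf1 as a gene with promoter accessibility specific to EPs. They also report a predicted regulatory element of Pklr that was accessible in HSCs and EPs but in none of the other cell types. Each peak was 499 bp wide, and the authors kept only non-overlapping peaks, so further summits that would have overlapped a kept peak are not listed. A peak was called a promoter peak when its centre lay within 500 bp of a transcription start site (TSS) by the HOMER distance, and a distal peak otherwise. Coordinates are mm10.

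The red cell membrane is held to an underlying spectrin skeleton. Band 3, the anion exchanger encoded by Slc4a1, is tied to spectrin by ankyrin (Ank1), and protein 4.2 (Epb42) strengthens that link. The Rh-associated glycoprotein (Rhag) sits with band 3 in the same membrane complex and is needed for Rh proteins to reach the surface. KLF1 is an erythroid zinc finger factor that binds CACCC-type sequences and activates globin, membrane and heme genes. It acts at many of them together with GATA1, which binds GATA sequences, often beside SCL (TAL1) on an E-box. Hemgn encodes hemogen, a nuclear protein of blood precursors. The transferrin receptor brings iron into cells and is used by all dividing cells, most heavily by erythroid precursors making heme. Pklr encodes the pyruvate kinase of liver and red cells, with a separate first exon for each.

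The sequence just before the TSS is shown first, for 6 of the 8 genes, because these promoters differ in the strings they hold. No sequence is shown for Slc4a1 and Ank1. Each line gives the 120 bases that end next to a RefSeq TSS, all inside the promoter peak and read 5′ to 3′ on the strand of the gene. Sequence came from the RefSeq genome of GRCm38.p6, the assembly of mm10. Capitals mark the GATA strings AGATAA and TGATAA and the KLF string CCNCNCCC, on either strand, so TTATCA is TGATAA read from the other strand.
Klf1 promoter, chr8:84901862-84901981, + strand: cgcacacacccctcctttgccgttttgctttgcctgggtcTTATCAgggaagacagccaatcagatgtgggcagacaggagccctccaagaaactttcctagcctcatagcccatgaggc
Hemgn promoter, chr4:46404184-46404303, - strand: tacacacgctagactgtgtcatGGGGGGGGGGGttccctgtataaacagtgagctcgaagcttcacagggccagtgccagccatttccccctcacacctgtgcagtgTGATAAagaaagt
Epb42 promoter, chr2:121036878-121036997, - strand: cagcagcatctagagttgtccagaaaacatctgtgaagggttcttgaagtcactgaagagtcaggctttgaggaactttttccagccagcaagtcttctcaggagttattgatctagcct
Rhag promoter, chr17:40811029-40811148, + strand: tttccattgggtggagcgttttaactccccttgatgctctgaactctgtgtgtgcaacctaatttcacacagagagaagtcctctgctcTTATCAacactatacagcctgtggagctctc
Tfrc promoter, chr16:32608776-32608895, + strand: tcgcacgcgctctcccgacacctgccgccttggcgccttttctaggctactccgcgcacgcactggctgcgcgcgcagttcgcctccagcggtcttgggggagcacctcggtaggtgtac
Pklr promoter, chr3:89136503-89136622, + strand: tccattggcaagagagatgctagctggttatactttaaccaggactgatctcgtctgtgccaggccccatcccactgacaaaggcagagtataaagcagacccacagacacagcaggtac
TGATAA lay in the printed bases of Klf1, Hemgn and Rhag. It was 23 bp upstream of the HOMER TSS in Klf1, 10 bp upstream in Hemgn and 29 bp upstream in Rhag, measured from the middle of the string. The Klf1 line ends at the RefSeq TSS, which lies downstream of the HOMER one, so the string is farther from the end of that line. The KLF match of Hemgn was an unbroken run of G, in which 4 overlapping matches were counted. The printed bases of Epb42, Tfrc and Pklr held none of these strings, and those of Tfrc were rich in CG pairs. The Pklr line ends at the TSS of the shorter protein, the liver form. The start of the red cell form lies outside the promoter peak. It has AGATAA just upstream and is shown further below.

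Of the same 6 genes, distal peaks are shown where a GATA string lay within 50 bp of the centre or a GATA:SCL string was present. That choice was made after the positions of the strings had been seen. The 101 central bases are given on the strand of the gene, with the same strings in capitals. The GATA:SCL string is CTG, then 8 bases of any kind, then AGATAA, and both of its parts are in capitals.
Klf1 distal, 623 bp upstream, chr8:84901255-84901355, + strand: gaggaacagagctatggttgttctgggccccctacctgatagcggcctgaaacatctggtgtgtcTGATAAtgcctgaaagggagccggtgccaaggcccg
Hemgn distal, 2960 bp upstream, chr4:46407093-46407193, - strand: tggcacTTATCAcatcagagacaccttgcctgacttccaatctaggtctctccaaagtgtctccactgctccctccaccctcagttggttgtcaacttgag
Hemgn distal, 6708 bp upstream, chr4:46410841-46410941, - strand: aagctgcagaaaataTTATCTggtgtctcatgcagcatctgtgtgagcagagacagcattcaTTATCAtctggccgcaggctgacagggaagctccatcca
Epb42 distal, 19257 bp upstream, chr2:121056084-121056184, - strand: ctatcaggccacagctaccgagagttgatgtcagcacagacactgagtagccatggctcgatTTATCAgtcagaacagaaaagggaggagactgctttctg
Rhag distal, 4311 bp upstream, chr17:40806788-40806888, + strand: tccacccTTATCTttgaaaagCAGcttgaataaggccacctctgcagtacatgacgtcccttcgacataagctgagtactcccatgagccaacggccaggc
Tfrc distal, 1524 bp downstream, chr16:32610596-32610696, + strand: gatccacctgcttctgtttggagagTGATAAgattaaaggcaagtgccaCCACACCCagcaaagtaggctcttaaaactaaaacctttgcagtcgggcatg
Tfrc distal, 3133 bp downstream, chr16:32612205-32612305, + strand: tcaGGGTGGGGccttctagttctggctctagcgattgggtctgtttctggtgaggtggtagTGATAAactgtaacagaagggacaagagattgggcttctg
The Rhag sequence is the one member peak with the GATA:SCL string, which is read there from the opposite strand. The Tfrc sequence 1524 bp downstream carries TGATAA 22 bp before the centre of the peak and CCACACCC 2 bp after it. HOMER annotated this peak as a repeat (PB1D9).

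Every one of the 8 genes had a promoter peak. In the whole list 64.5% of the 19040 named genes had one. Of 21000 RefSeq protein-coding genes, 60.3% had a peak centre within 500 bp of a curated TSS. The 9 promoter peaks of the members were centred 15 to 88 bp from the HOMER TSS. Their median distance was 49 bp, against 67 bp over all 13171 promoter peaks. The other 27 peaks were distal, 15 upstream and 12 downstream of the nearest TSS. The members had 3 to 9 peaks each, with a median of 4, against a median of 3 over all named genes (quartiles 1 and 5, highest 89). Klf1, Slc4a1, Epb42 and Pklr had 3 peaks each, a number that 54.9% of the named genes reached. Hemgn, Rhag and Tfrc had 5 each, which 31.8% of genes reached, and Ank1 had 9, which 12.8% reached.

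**Figure D1:**
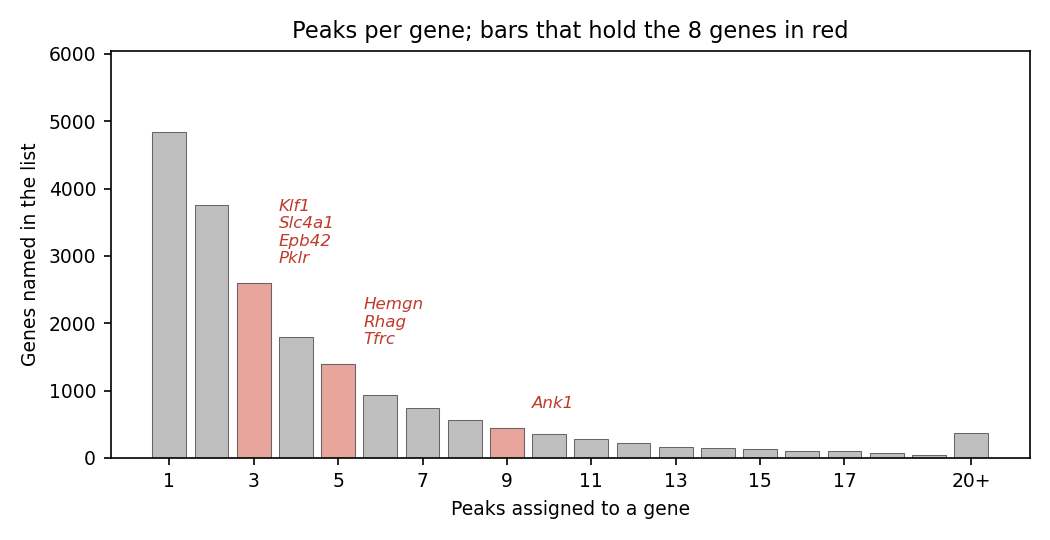
Number of genes named in the list (y) by the number of peaks assigned to them (x), with genes of 20 or more peaks in the last bar. Red bars hold the 8 genes, whose names stand beside them. The 8 genes sit at 3, 5 and 9 peaks, on the falling side of a distribution with a median of 3.

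**Figure D2:**
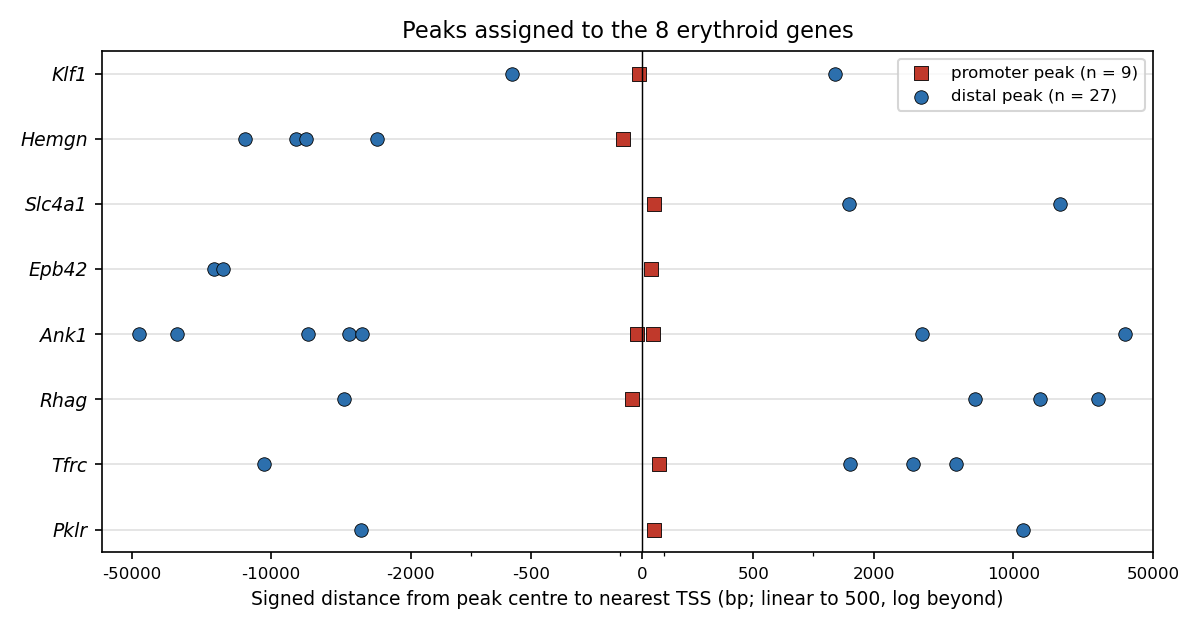
Signed distance in bp from each peak centre to its nearest TSS by HOMER (x, linear to 500 bp and logarithmic beyond) for each gene (y). Red squares are the 9 promoter peaks and blue circles the 27 distal peaks, with upstream to the left. Hemgn and Epb42 have distal peaks on the upstream side alone, and Slc4a1 on the downstream side alone.

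Among the regulators, the 3 peaks of Klf1 (chromosome 8, plus strand) lay close together. The promoter peak (chr8:84901664-84902162) was centred 15 bp upstream of the HOMER TSS. A second peak (chr8:84901056-84901554) was centred 623 bp upstream, with 608 bp between the centres. HOMER put it in its promoter class, and the 500 bp limit made it distal. The third (chr8:84902966-84903464) was centred 1287 bp downstream, in exon 2 of 3. Both upstream peaks held TGATAA, 8 bp and 18 bp from their centres. The exonic peak held none, and it was the one distal peak of the members with a CpG ratio above 0.6. That ratio is the observed over the expected number of CG pairs, and it was 0.80 there against 0.09 and 0.13 in the other 2. The RefSeq TSS of Klf1 lies 54 bp downstream of the HOMER one, so the RefSeq distances are 69, 677 and 1233 bp.

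Hemgn (chromosome 4, minus strand) had 5 peaks, all centred upstream of its TSS. The promoter peak (chr4:46404022-46404520) was centred 88 bp upstream and the 4 distal peaks 2960, 6708, 7548 and 13483 bp upstream, all of them intergenic. The promoter peak and the peaks at 2960 and 6708 bp each held 1 AGATAA and 1 TGATAA, while the peaks at 7548 and 13483 bp held neither. The gene body was not empty of peaks. A pair of regions in an exon of Hemgn (chr4:46394316-46394814 and chr4:46395684-46396182), 9618 and 8250 bp from its TSS, went to the neighbouring gene Trmo, whose TSS was nearer at 5128 and 6496 bp.

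Of the membrane genes, Slc4a1 (chromosome 11, minus strand) had its promoter peak (chr11:102364977-102365475) centred 55 bp downstream of the TSS, in exon 1 of 20. A second peak (chr11:102363526-102364024) lay 1506 bp downstream in intron 1 of 19. The third (chr11:102347946-102348444) was centred 17086 bp downstream, in the region HOMER annotates as the transcription termination site. AGATAA lay 5 bp upstream of the Slc4a1 TSS within the promoter peak. The intronic peak combined AGATAA with TGATAA and held 4 copies of the E-box string CAGCTG, more than any other of the 36 peaks. The peak at the end of the gene held no GATA string and 2 KLF matches.

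Epb42 (chromosome 2, minus strand) had a promoter peak (chr2:121036587-121037085) centred 41 bp downstream of the TSS in exon 1 of 13. It held neither GATA string and no KLF string. Its 2 distal peaks both lay in intron 6 of 12 of the neighbouring gene Tgm5, centred 17435 bp (chr2:121054063-121054561) and 19257 bp (chr2:121055885-121056383) upstream of the Epb42 TSS. They were 1822 bp apart. The farther one held the single GATA string of the 3 Epb42 peaks, TGATAA, 14 bp from the centre.

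Ank1 (chromosome 8, plus strand) is the longest of the genes, 175.7 kb, and RefSeq gives it 4 curated TSSs. Peaks lay on 2 of them. One promoter peak (chr8:23034828-23035326) was centred 22 bp upstream of a TSS shared by 2 transcripts, and the other (chr8:23058059-23058557) 49 bp downstream of a TSS shared by 5. The first TSS of the gene, that of the RefSeq Select transcript, had its nearest peak centre 46042 bp away. The last TSS, of transcripts that code for 155 and 156 amino acids, had its nearest peak centre 5575 bp away, in a peak that HOMER gave to Mir3107. In the list 790 genes, or 4.15%, had 2 or more promoter peaks, and Ank1 was the one member among them.

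The 7 distal peaks of Ank1 were spread over the locus. The farthest (chr8:22928545-22929043) was centred 46042 bp upstream, in intron 13 of 17 of Kat6a, and held AGATAA 54 bp from its centre. A cluster of 3 lay around the first promoter peak, at 6576 and 3519 bp upstream and 3509 bp downstream. A peak 4076 bp upstream of the second promoter (chr8:23053934-23054432) held 2 TGATAA strings, 28 and 24 bp to either side of its centre. The last 2 lay in introns 10 and 21 of 43 and held no GATA string. Of 9 peaks, 2 held AGATAA or TGATAA, the lowest share among the 8 genes.

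Rhag (chromosome 17, plus strand) had its promoter peak (chr17:40810855-40811353) centred 45 bp upstream of the TSS. That peak had the lowest content of G and C among the 9 promoter peaks, 40.3%, and the lowest CpG ratio, 0.05. An upstream distal peak (chr17:40806589-40807087), 4311 bp from the TSS, held the GATA:SCL string 35 bp from its centre. The 3 downstream peaks lay 6433, 13583 and 26407 bp into the gene, and HOMER annotated each as a repeat (L1_Mus4, Lx8 and B1_Mur2). Rhag had a GATA string in 4 of 5 peaks. In the peaks annotated as L1_Mus4 and B1_Mur2 these strings lay 208 to 244 bp from the centre, towards the edges.

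For iron uptake, Tfrc (chromosome 16, plus strand) had a promoter peak (chr16:32608721-32609219) centred 74 bp downstream of its first TSS and covering the second curated TSS as well. It had the highest G and C content of the 36 peaks, 69.5%, the highest CpG ratio, 0.94, and 7 KLF matches, with no GATA string. The 3 downstream peaks were intronic. TGATAA lay 22 bp from the centre of the peak at 1524 bp and 14 bp from the centre of the peak at 3133 bp, and AGATAA 148 bp from the centre of the peak at 5155 bp. HOMER annotated the peaks at 1524 and 5155 bp downstream, and the one at 10863 bp upstream, as repeats (PB1D9, B2_Mm2 and MER5A1).

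For glycolysis, Pklr (chromosome 3, plus strand) has 2 curated TSSs. The promoter peak (chr3:89136426-89136924) was centred 52 bp downstream of the TSS of variant 2, which codes for 543 amino acids. The TSS of variant 1, the RefSeq Select transcript with 574 amino acids, lay 284 bp outside the peak and 533 bp from its centre. The longer protein is the red cell form and the shorter the liver form, as background. The list thus holds no separate peak on the start of the red cell form. The distal peaks were centred 3559 bp upstream, with TGATAA 72 bp from the centre, and 11207 bp downstream (chr3:89147581-89148079), in exon 8 of 8 of the neighbouring gene Hcn3.

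The sequence around the starts was also searched apart from the peaks. In the RefSeq promoter windows, which span 250 bases before to 50 after each TSS, 0.362% of 32851 windows held the GATA:SCL string. The table had entries for 6 of the 8 genes (8 windows) and none for Slc4a1 and Ank1. Of the 8 windows, 2 held it, those of Epb42 and of Pklr variant 1. Both strings lay outside the peaks. They are shown with 20 bases on either side, on the strand of the gene, and were chosen after the search.
Epb42 upstream window, chr2:121037067-121037123, - strand: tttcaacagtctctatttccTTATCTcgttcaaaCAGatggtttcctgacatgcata
Pklr upstream window, chr3:89136076-89136132, + strand: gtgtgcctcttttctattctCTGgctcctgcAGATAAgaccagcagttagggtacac
The Epb42 string was centred 218 bp upstream of the TSS and began 2 bp beyond the edge of the promoter peak. The Pklr string was centred 38 bp upstream of the variant 1 TSS and lay 314 bp from the nearest peak. AGATAA was in 3 of the 8 windows, against 11.2% of all windows, and the KLF string in 3, against 49.5%. The windows are not independent. Those with the KLF string were the window of Hemgn and the pair of Tfrc windows, which overlap. In Epb42 and Pklr variant 1 the AGATAA was the one within the GATA:SCL string. A match describes the letters and is not a measured binding site.

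The promoter peaks of the members were poor in CG pairs. The ratio was above 0.6 in 2 of 9, Tfrc (0.94) and the downstream one of the Ank1 promoter peaks (0.76), against 75.7% of all 13171 promoter peaks. The other 7 ranged from 0.05 in Rhag to 0.47 in the upstream one of Ank1. The median was 0.20 in the members and 0.78 in the list. The median G and C content was 56.9% against 63.3%, so the difference was smaller in base content than in CG pairs. Distal peaks were close to the list in G and C content, with a median of 48.1% against 47.7%.

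**Figure D3:**
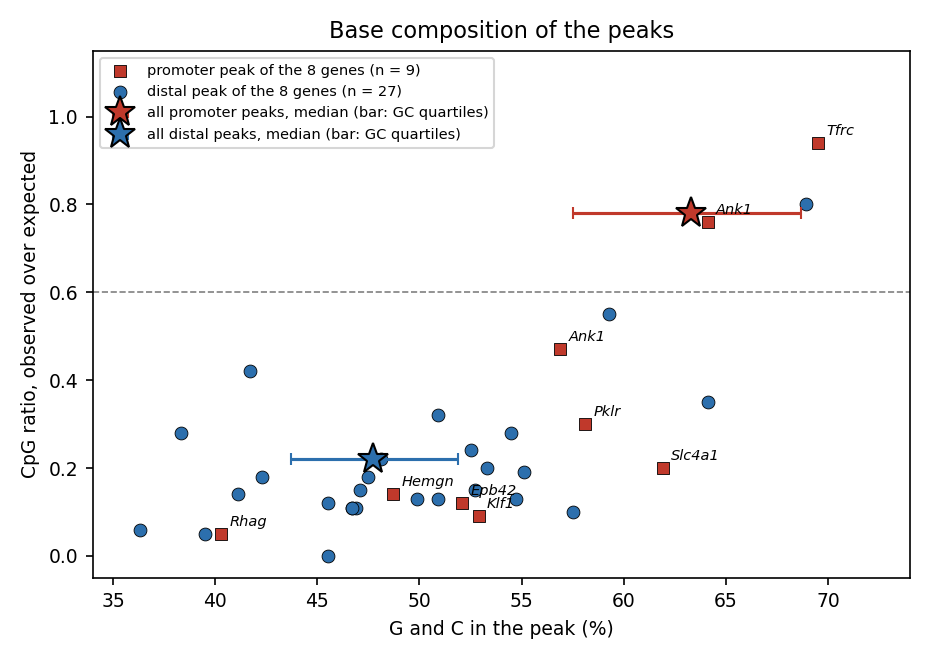
CpG ratio, observed over expected (y), against G and C content in percent (x) of the 9 promoter peaks (red squares, with gene names) and 27 distal peaks (blue circles) of the 8 genes. Stars are the medians of all promoter and all distal peaks, with bars for the quartiles of G and C content, and the dashed line is at 0.6. Tfrc and one Ank1 promoter lie near or above the promoter star, and the other 7 promoter peaks lie below 0.6.

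Distal peaks lay nearer to their genes than in the list at large. The median distance was 6576 bp, against 22261 bp over 71072 distal peaks, and 16 of 27 (59.3%) lay within 10 kb of the TSS, against 28.9%. Introns held 16 of the 27 (59.3%), against 48.0% in the list, and intergenic sequence 7 (25.9%), against 44.6%. Another peak centre lay within 5 kb of 17 of 27 (63.0%), against 52.8%. Repeats were annotated at 6 of 27 (22.2%), against 17.9%, and all 6 belonged to Rhag and Tfrc. These shares rest on 8 loci, in which neighbouring peaks are not independent.

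GATA strings were read on both strands of the whole peak. Each of the 8 genes had at least 1 peak with AGATAA or TGATAA, against 64.4% of all named genes and 84.3% of the 8455 genes with 3 to 9 peaks, so this count is near the background for genes with as many peaks. Either string occurred in 18 of the 36 peaks, against 37.1% of all peaks. Among promoter peaks 4 of 9 held one (Klf1, Hemgn, Slc4a1 and Rhag), against 13.5% of promoter peaks in the list. Among distal peaks 14 of 27 (51.9%) did, against 41.5%. AGATAA alone was in 2 of 9 promoter peaks, against 8.66%, and in 7 of 27 distal peaks (25.9%), against 26.9%, a share near the background. TGATAA was in 3 of 9 promoter peaks, against 5.74%, and in 10 of 27 distal peaks (37.0%), against 20.9%. The 4 promoter peaks with a GATA string also had low CpG ratios, 0.05 to 0.20, and the part of base composition in the count was not tested.

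The TGATAA strings of the members lay near the peak centres. Of 14 strings, 11 were within 50 bp and 9 within 25 bp of a centre, and the median distance was 20 bp. Over the list 21.3% of 18001 such strings were within 50 bp, 10.3% within 25 bp, and the median was 124 bp. Counted by peak, 10 of 36 peaks had TGATAA within 50 bp of the centre, against 4.38% of all peaks. They belonged to 7 of the 8 genes, and the share of all genes with such a peak was not counted. Pklr was the gene without one. AGATAA did not share this position, with 2 of 10 strings within 50 bp and a median of 94 bp, against 23.3% and 116 bp in the list. The limit of 50 bp was chosen after the positions were seen. Limits of 25 and 100 bp gave 9 and 12 peaks, against 2.17% and 8.17% of all peaks.

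**Figure D4:**
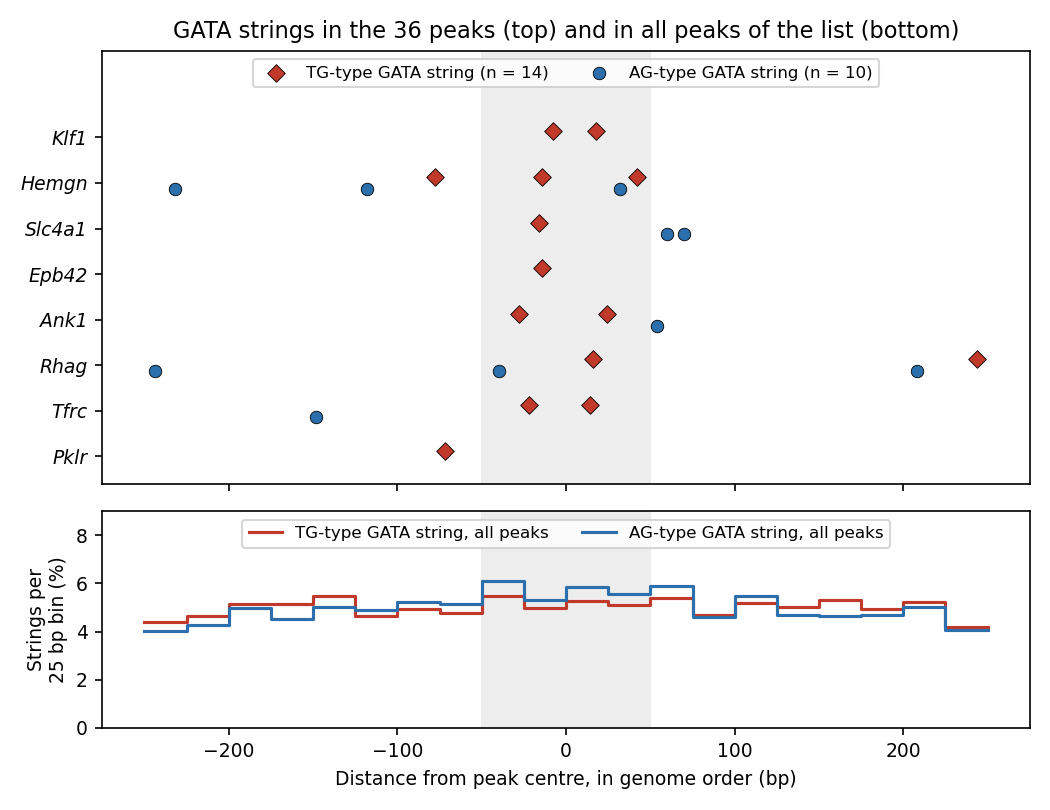
Top, distance in bp of each GATA string from the centre of its peak (x) for each gene (y), with TGATAA as red diamonds (n = 14) and AGATAA as blue circles (n = 10). Bottom, share of all such strings of the list in each 25 bp bin (y, percent). The shaded band is 50 bp to either side of the centre, and it holds 11 of the 14 red diamonds and 2 of the 10 blue circles, while both lines of the list are nearly level.

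KLF strings followed another order. CCNCNCCC was in 6 of 9 promoter peaks, against 81.4% of promoter peaks in the list, and in 18 of 27 distal peaks (66.7%), against 43.7%. By the mean number of matches per peak the members were near the list, with 3 against 2.9 in promoter peaks and 1.11 against 1.08 in distal peaks. The 3 promoter peaks without CCNCNCCC were those of Epb42, Rhag and, of the Ank1 pair, the upstream one (chr8:23034828-23035326). The stricter CCNCACCC, the CACCC type that KLF1 binds, was in 4 of 9 promoter peaks, against 29.4%, and in 9 of 27 distal peaks (33.3%), against 19.9%. Its mean number per peak was 0.778 against 0.386 in promoter peaks and 0.481 against 0.262 in distal peaks. The GATA:SCL string was in 0 of 9 promoter peaks, against 0.342%, and in 1 of 27 distal peaks, against 1.54%, which is too rare for a comparison at this number of peaks.

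Strings of other blood factors were rarer than in the list, near to it or commoner. The ETS string AGGAAG was in 11 of 27 distal peaks (40.7%), against 65.0% in the list, and in 4 of 9 promoter peaks, against 48.1%. The RUNX string AACCACA was in 4 of 27 distal peaks, against 18.0%. TGANTCA, the core shared by AP-1 and NF-E2, was in 5 of 27 distal peaks, against 16.9%, and the longer NF-E2 string TGACTCAGC was in none of the 36, against 1.71% of all peaks, a share too low to read anything from that count. CAGCTG was in 11 of 27 distal peaks (40.7%), against 30.4%, and in 4 of 9 promoter peaks, against 26.1%.

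**Figure D5:**
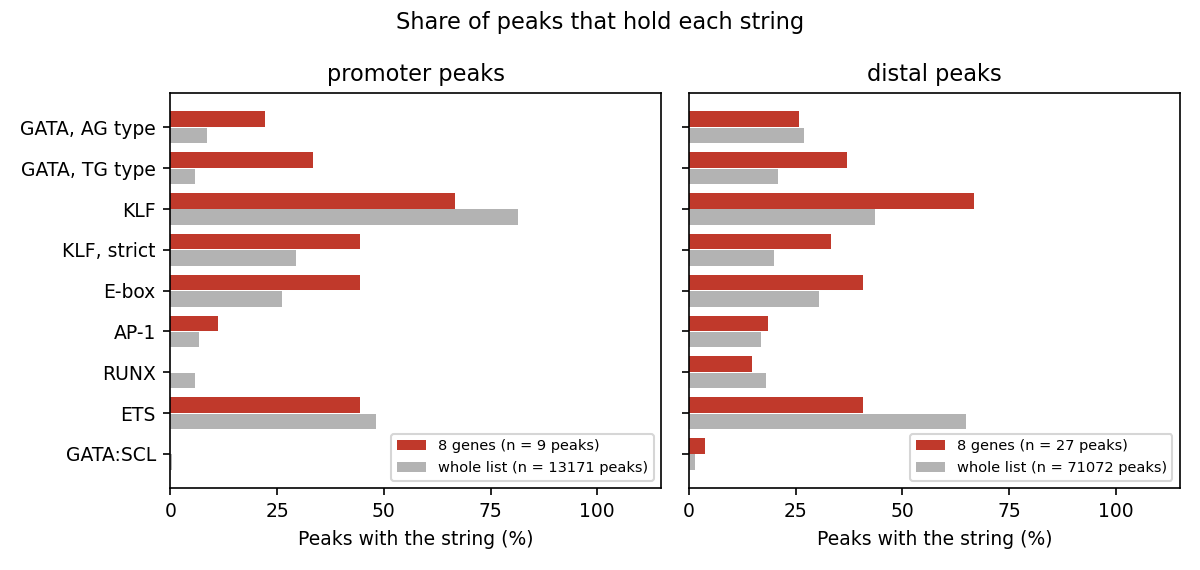
Share of peaks in percent (x) that hold each string (y), for promoter peaks (left) and distal peaks (right). Red bars are the peaks of the 8 genes (9 and 27) and grey bars all peaks of the class in the list (13171 and 71072). In distal peaks the red bar is longer for KLF (66.7% against 43.7%) and shorter for ETS (40.7% against 65.0%).

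The naming of peaks by the nearest TSS left out regions in and beside the genes. Within the gene bodies and 10 kb on either side lay 46 peak centres, of which HOMER gave 31 to the members and 15 to neighbours. For Klf1 these were the promoter peaks of Gcdh, Dnase2a and Gm38426. For Hemgn they were 4 peaks of Trmo, and for Ank1 they were 6 peaks of Mir3107, Gm15816 and Nkx6-3. Epb42 and Tfrc each had 1, of Ccndbp1 and Tnk2, and Slc4a1, Rhag and Pklr had none. By RefSeq the nearest gene was the same for 36 of 36 member peaks.

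Promoter peaks were nearly the rule in a list of other erythroid genes, which was chosen with earlier results of these data known. Of 33 listed genes, 32 had one, against 64.5% of the 19040 named genes. These were 15 of 15 for membrane and skeleton, 12 of 12 regulators and 5 of 6 for iron uptake and red cell glycolysis. The exception was Slc25a37, which encodes mitoferrin, the mitochondrial iron importer. It had 4 distal peaks, and the centre nearest to its TSS was 31271 bp away. With a promoter limit of 100 bp, 25 of the 33 genes had a promoter peak, and all 8 members still had one. The share of all named genes at that limit was not counted. Centres that close are common in the list, where the median distance of promoter peaks was 67 bp. The 33 genes had 282 peaks, with a median of 6 per gene. High numbers of peaks were named for Gypc (15), Aqp1 (13) and Epb41 (12) among membrane genes, and for Bcl11a (40), Zfpm1 (27) and Foxo3 (17) among regulators. In the last group the most peaks were named for Steap3 (13), Bpgm (7) and Hk1 (6), and Hk1 was at the median of the 33 genes. AGATAA was in 29.4% of the 282 peaks, against 24.1% of all peaks, and the KLF string in 59.6%, against 49.6%. The groups differed in both. AGATAA was in 37.5% of membrane and skeleton peaks, 26.2% of regulator peaks and 18.9% of iron uptake and glycolysis peaks. In the same order the KLF string was in 51.9%, 67.4% and 51.4%. Their 80 TGATAA strings had a median distance of 63 bp from the centre, with 37.5% within 50 bp. Their 103 AGATAA strings had a median of 86 bp, with 35.9% within 50 bp. Both strings thus lay nearer to the centre in these genes than over the list, by 37.5% against 21.3% for TGATAA and 35.9% against 23.3% for AGATAA.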

How the data were processed

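ATAC-seq was performed in 12 samples, 2 replicates of each of 6 cell types. The authors ran the ENCODE ATAC-seq pipeline on the mm10 assembly for mapping and peak calling, joined the reproducible lists of the cell types, kept non-overlapping peaks with chromVAR and annotated them with HOMER (4.10.2, per the submitters' processing notes). The deposited list pools all samples, so all comparisons are descriptions without a test. The deposited score was 0 throughout and was not used, and start, end and TSS distance are in bp as the authors deposited them.

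Peaks were read with Python 3.11.15, pandas 2.3.3 and pysam 0.24.0, and plotted with matplotlib 3.10.9. Genes, TSSs and sequence came from RefSeq release 108 of GRCm38.p6. HOMER and RefSeq distances were the same within 2 bp in 33 of 36 peaks. Strings were searched on both strands without mismatch, and the search was tested on simulated sequences. The genes named were the 8 members, their neighbours with a peak within 10 kb and, of the other erythroid genes, those without a promoter peak and the 3 with the most peaks per group, except that 1 gene is not reported here. Promoter sequence was stopped at the TSS. Members and lists were chosen with earlier results of these data known. Values per cell type were not analysed here.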

Additional observations from a re-analysis of the deposited data

How the results depend on the processing

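Of 20 alternatives, 13 changed a count by less than 1.5 times, among them the promoter limit (100 or 1000 bp), RefSeq TSSs and the 25 and 100 bp limits for TGATAA, which were chosen after seeing the data. With basal plus extension domains, which reach from 2 kb upstream and 1 kb downstream of a TSS to the next gene's domain or 1 Mb, 66 peaks were named for the members in place of 36. Without the 10 kb flank the windows held 26 peaks in place of 46. AGATAA was in 9 of 36 peaks, in 5 when the central 200 bp was searched, in 18 with TGATAA added and in 36 with 1 mismatch. The KLF string was in 24 peaks, in 16 when the central 200 bp was searched and in 13 as CCNCACCC. Over the list the same searches gave 24.1%, 11.2%, 37.1% and 95.5% for GATA, and 49.6%, 30.1% and 21.4% for KLF. A threshold on the score was not possible, as each score was 0. No paired analysis was possible because the list has no values per sample. Depth per sample is unknown.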
